A study of Mus musculus with 16 samples.

Results

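Nutrient sensing to mTORC1 and TFEB was followed through 10 genes chosen by name: the sestrins Sesn1, Sesn2 and Sesn3, the mTORC1 inhibitors Ddit4 and Deptor, the lysosomal GTPase gene Rragd with its regulator Flcn, and the MiT/TFE transcription factors Tfeb, Tfe3 and Mitf. They were 10 of the 40840 genes in the count table. All 10 were among the 20444 genes with at least 10 counts in total over the 16 libraries. The rule that lists them uses no threshold on a measured value, but they were chosen with earlier results of these data known. Counts of members called, set beside the share of all genes, are therefore a description and not a test of the set.

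RNA was sequenced from p53-/-; Myc hepatoblasts, a mouse liver progenitor cell line that lacks p53 and overexpresses Myc, used as a model of hepatocellular carcinoma. All groups came from this line, so knockout and Myc overexpression were shared by treated and control cells. Cells received sorafenib, a multikinase inhibitor used against liver cancer (8.5 µM in the study's methods), or its vehicle DMSO. The 4 groups were DMSO for 48 hours, sorafenib for 48 hours, DMSO for 7 days and sorafenib for 7 days, with 4 replicates each. The labels do not say whether replicates were separate cultures, so p-values here measure only the spread between these libraries. They also do not say whether both time points were handled together, so time in culture and handling cannot be told apart.

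mTORC1 is a kinase complex that drives protein and lipid synthesis when amino acids and growth factors are plentiful. Amino acids act through the Rag GTPases, which bring mTORC1 to the lysosome, where FLCN and its partners set the state of RagC and RagD, and sestrins and DDIT4 act as brakes under stress. TFEB and TFE3 are held in the cytoplasm by active mTORC1 and, once released, turn on lysosomal and autophagy genes, and in liver cells this circuit links nutrient supply to lysosome number and fat breakdown.

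Total counts per library ranged from 24002696 to 28617629 with DMSO for 48 hours and from 16586254 to 27352812 with sorafenib for 48 hours. They ranged from 23279342 to 29654546 with DMSO for 7 days and from 22302847 to 30828427 with sorafenib for 7 days. Normalized counts below are counts scaled for library size with TMM factors, and brought to 1 common scale for the 16 libraries. Changes are log2 fold changes with standard errors (SE), each taken as the absolute change divided by the square root of the F statistic of its test. A gene was called when its Benjamini-Hochberg adjusted p over all 20444 genes (FDR) was under 0.05 in edgeR's quasi-likelihood test. RNA was measured in bulk, so a lower level through fewer cells of a type and through less RNA per cell cannot be told apart, and protein, phosphorylation and place in the cell, through which much of this pathway acts, were not measured.

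The label of the cells was set beside marker genes. For the counts of markers called, the shares over all genes tested were 26.9% higher and 27.7% lower at 48 hours, and 28.9% and 27.9% at 7 days. Of 9 hepatoblast and liver progenitor markers, 7 passed the count filter, and Hnf4a was at 0 in every group and Alb at 0 in both groups at 48 hours. Summed over these markers, DMSO cells had 35503 ± 761 normalized counts (SD, n = 4) and sorafenib cells 12939 ± 832 at 48 hours. The sums were 19071 ± 819.8 and 6189 ± 111 at 7 days, and Dlk1 was the most abundant marker in each group. Of these 7 genes, 1 was called higher and 5 lower at 48 hours (median log2 fold change −0.69), and 1 higher and 6 lower at 7 days (median −1.10). Afp, at FDR 0.0481 among these 6, missed the threshold in 11 of the 16 fits that left out 1 library (FDR 0.0516 to 0.146). At 48 hours and 7 days Dlk1 changed by −1.63 and −2.06, Krt19 by −0.77 and −0.52, Krt18 by −0.40 and −0.92 and Sox9, the higher gene, by 1.64 and 1.37. The 5 fibroblast and stellate cell markers summed to 48465 ± 1361 with DMSO and 147890 ± 9759 with sorafenib at 48 hours, and to 67226 ± 857 and 116370 ± 2218 at 7 days. None of the 5 was at 0, Col1a1 was the most abundant in 3 of the groups and Acta2 in sorafenib for 7 days, and 3 were called higher and 1 lower at 48 hours (median 0.95) against 3 and 2 at 7 days (median 0.31). Acta2 changed by 3.81 and 1.39, Col1a2 by 1.75 and 0.67, Col1a1 by 0.95 and 0.31 and Pdgfrb by −0.76 and −0.61. Des was also called lower at 48 hours without replicate 4 of DMSO for 48 hours (−0.43, FDR 0.0293). The 4 endothelial markers summed to 71.3, 130, 47.6 and 208 in DMSO 48 hours, sorafenib 48 hours, DMSO 7 days and sorafenib 7 days, with Kdr the most abundant and Cdh5 at 0 in every group except DMSO for 7 days. Of the 3 endothelial markers tested, 1 was called higher and 1 lower at each time point (medians −1.31 and 0.68). These medians ranged from −1.58 to −0.86 and from 0.34 to 0.95 when 1 library was left out. Kdr, the higher gene, changed by 1.32 and 2.65. The call of Tek, the lower gene, was lost at 7 days in 5 of those 16 fits (FDR 0.0581 to 0.173), and Pecam1 was called lower at 48 hours without replicate 4 of sorafenib (−3.20, FDR 0.0140). The 5 leukocyte markers summed to 80.5, 75.6, 140 and 80.1 in the same order, led by Cd68 except for Csf1r in DMSO for 7 days. Adgre1 was at 0 in every group, and Ptprc and Lyz2 were at 0 at 48 hours. Of the 2 leukocyte markers tested, Cd68 (FDR 0.854) and Csf1r (FDR 0.164) were not called at 48 hours (median −0.35), although Csf1r was without replicate 1 of sorafenib (−1.28, FDR 0.00831), and Csf1r was lower at 7 days (FDR 3.3e-08, median of both −1.20). When 1 library was left out, the leukocyte median at 48 hours ranged from −0.69 to −0.19. The hepatoblast, fibroblast and endothelial sums at both times, and the leukocyte sum at 7 days, differed between treated and control libraries without overlap, as most members did, and their part in the members' values was not tested. Reads were counted on Trp53 in every library, with group means of 3690.01, 1843, 2128 and 2570.2 normalized counts in the same order, and such counts do not tell a deleted allele from an intact one.

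Some libraries lay apart from the others of their group. For replicate 2 of sorafenib for 48 hours, the difference followed the genome. With genes in order along GRCm39, its counts relative to those replicates stepped down after a place on chromosome 14 (chr14:103350847) and remained low on chromosomes 15, 16, 17, 18, 19 and X. Beyond that place the ratio to the other replicates dropped to 0.604 of its earlier value (−0.73 in log2), and no other library had a step of more than 0.07. Of the 10 members, 3 lie in this stretch, namely Deptor on chromosome 15, Tfeb on chromosome 17 and Tfe3 on chromosome X. Their values are given with and without this library. The other members lie before that place, where the library's median log2 ratio to the other replicates was 0.09. Without this library their changes at 48 hours were −1.82 for Sesn1, 2.16 for Sesn2, −0.34 for Sesn3 and −0.84 for Ddit4. They were 0.55 for Rragd, 0.26 for Flcn and 0.14 for Mitf, and of these members only Mitf was not called.

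By chi-square per gene between pairs of replicates, that library lay at 24.8 to 28.2 from the others of its group. Replicate 4 of DMSO for 7 days lay at 37.6 to 49.9 from its group, and replicates 2 and 3 of DMSO for 48 hours lay at 13.2 to 29.8 from replicates 1 and 4, against 1.47 to 4.72 in all remaining pairs. A breakdown by gene was made after seeing the data. In the distant DMSO pairs, 10 genes led by LOC118568312, AY036118 and Lars2 carried 78.7 to 94.8% of the chi-square, and the remaining genes had 1.99 to 3.94 per gene. In the distant sorafenib pairs the top 10 genes carried 7.09 to 9.59%, and the remaining genes had 22.5 to 26.1 per gene. LOC118568312, AY036118 and Lars2 together took 3.23% of the counts in replicate 4 of DMSO for 7 days, 2.98 and 2.13% in replicates 2 and 3 of DMSO for 48 hours, and 0.313 to 0.891% in the other libraries. No call of a member, in any comparison, changed when 1 of these 3 DMSO libraries was left out. The cause of these differences was not tested.

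Sorafenib against DMSO asks how the drug changes these genes at an early and a late time. At 48 hours 9 of the 10 members were called, 3 higher and 6 lower, beside 54.6% of all genes tested (26.9% higher and 27.7% lower). At 7 days 7 members were called, 5 higher and 2 lower, beside 56.8% of all genes (28.9% higher and 27.9% lower). When a log2 change of 1 or more in either direction was also required, 2 members were called at 48 hours beside 18.0% of genes, and 5 at 7 days beside 20.6%. The libraries of the groups did not overlap for 9 members at 48 hours and 8 at 7 days, beside 48.0% and 56.8% of all genes. The genes tested include many that averaged under 100 normalized counts, while each member except Mitf averaged more than that in every group. Shares among genes of a level like that of the members were not computed. The response itself differed between time points, by the interaction of treatment and time, for 7 members beside 36.8% of genes. Ddit4 and Deptor, 2 of the 10, were called at both time points in opposite directions, as were 4.78% of genes. Without replicate 2 of sorafenib for 48 hours Tfe3 joined them (−0.12, FDR 0.00783, and 0.15, FDR 2.3e-04), which made 3 members beside 6.09% of genes. Over the 10 members, the median log2 fold change was −0.27 at 48 hours and 0.32 at 7 days, against −0.05 and 0.02 over all genes tested. The comparisons at each time point and between time points share libraries and are not independent of each other.

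**Figure D1:**
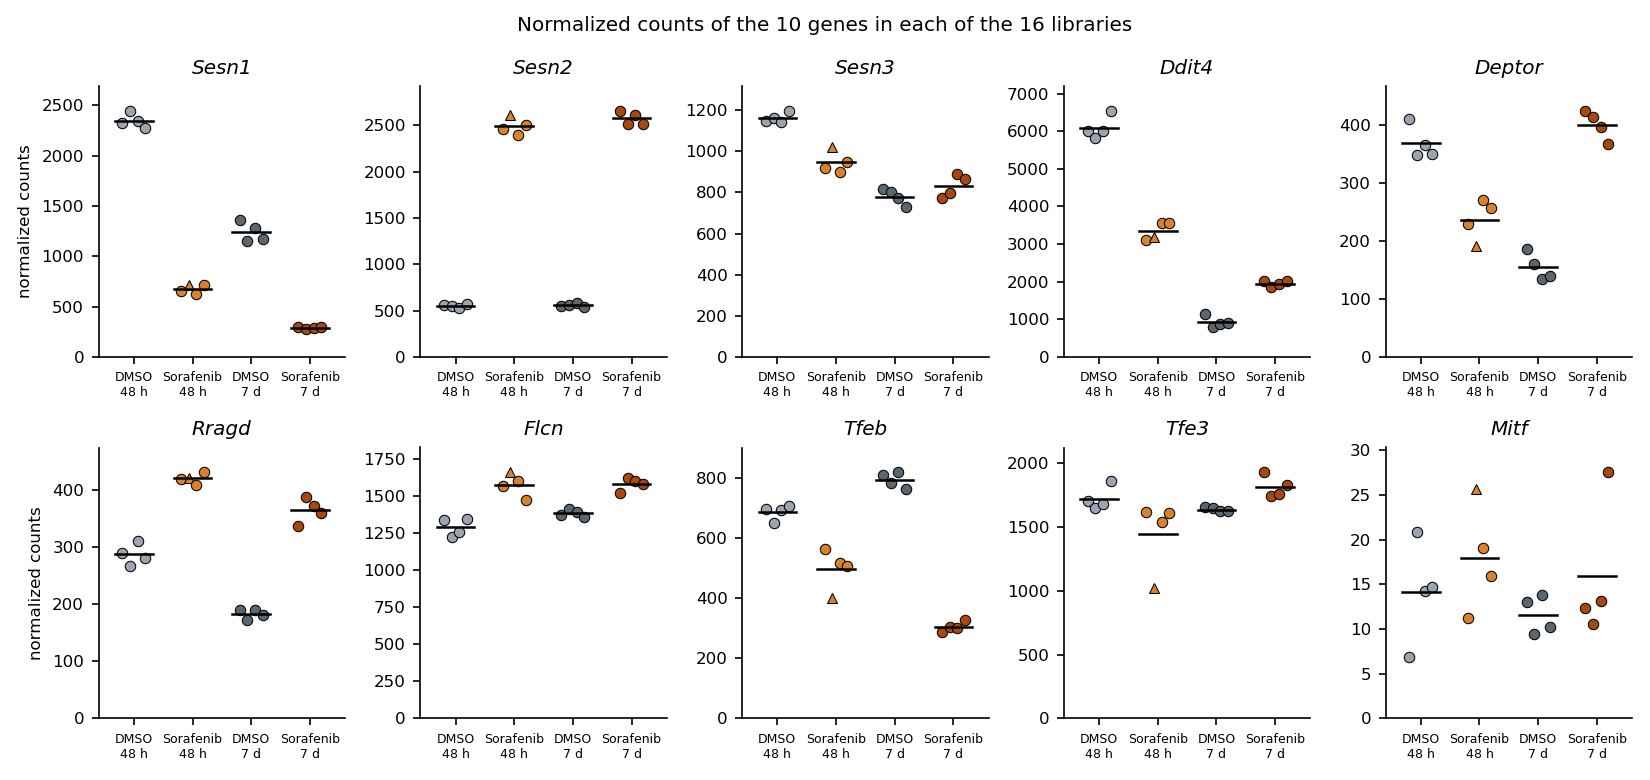
Normalized counts of each of the 10 genes (vertical axis) in the 16 libraries, by group (horizontal axis), with 1 point a library and a line at the group mean. The triangle marks replicate 2 of sorafenib for 48 hours, which lies at 1021 for Tfe3 where the other 3 libraries lie from 1542 to 1621, and Sesn2 lies at 2392 or more in all sorafenib libraries and at 580.1 or less in all DMSO libraries.

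Sestrins restrain mTORC1 through GATOR2, and SESN2 also acts as a leucine sensor. Sesn2 (ENSMUSG00000028893.10, chr4:132219335-132237815, minus strand, GRCm39) had 557, 544, 529.9 and 565 normalized counts in the 4 libraries with DMSO for 48 hours and 2455, 2613, 2392 and 2507 with sorafenib for 48 hours. At 7 days it had 548, 555, 580.1 and 536 with DMSO and 2658, 2516, 2609 and 2516 with sorafenib. Every sorafenib library lay above every DMSO library, while the time points overlapped within each treatment. The log2 fold change was 2.18 (SE 0.0402, FDR 2.1e-19) at 48 hours, a 4.53-fold rise, and 2.21 (SE 0.0399, FDR 1.0e-19) at 7 days, a 4.64-fold rise. These absolute changes were larger than those of 90.3% and 89.9% of the genes tested. The difference between the responses was 0.03 (SE 0.0560, FDR 0.703), and neither DMSO libraries (0.02, FDR 0.803) nor sorafenib libraries (0.05, FDR 0.327) were called between time points. With only genes of at least 10 counts in every sample, the last of these became 0.10 (FDR 0.0164) and was called.

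Sesn2 is known as a gene that ATF4, the transcription factor of the integrated stress response, can turn on. The start of the gene is therefore shown beside that of Slc7a11, an ATF4 target, over the 130 bases before each RefSeq start (GRCm38.p6, 5′ to 3′ on the gene's strand). Capitals mark the letters TGATGNAA, a form of the ATF4 composite site, on either strand. Slc7a11 as the gene shown for comparison, and the span, were chosen after the matches were seen. The Sesn2 stretch is chr4:132510457-132510586 (minus strand) and holds 0 matches, and the Slc7a11 stretch is chr3:50443614-50443743 (minus strand) and holds 2.
Sesn2: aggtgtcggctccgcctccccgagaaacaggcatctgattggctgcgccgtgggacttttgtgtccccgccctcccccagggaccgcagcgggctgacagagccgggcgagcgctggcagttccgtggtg
Slc7a11: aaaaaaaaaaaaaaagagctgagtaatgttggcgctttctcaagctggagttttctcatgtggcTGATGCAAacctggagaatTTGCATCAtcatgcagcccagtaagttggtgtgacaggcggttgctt
A match describes letters and shows no binding, and the absence of a match says only that these letters are not in this window.

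Sesn1 (ENSMUSG00000038332.15, chr10:41685931-41784423, plus strand), a sestrin best known as a p53 target, went the other way. It had 2321, 2448, 2348 and 2274 normalized counts with DMSO and 654, 714, 623 and 714 with sorafenib at 48 hours. The values at 7 days were 1362, 1156, 1284 and 1176 with DMSO and 299.2, 277, 288 and 299.05 with sorafenib. The 4 groups did not overlap at all, with DMSO for 48 hours highest and sorafenib for 7 days lowest. Sesn1 fell 3.48-fold at 48 hours (log2 fold change −1.80, SE 0.0554, FDR 3.7e-16) and 4.28-fold at 7 days (−2.10, SE 0.0602, FDR 1.1e-16). It also fell between time points with DMSO (−0.92, FDR 1.3e-11) and with sorafenib (−1.22, FDR 6.9e-12). The response differed between time points by −0.30 (SE 0.0818, FDR 0.00638), which missed the threshold with total counts in place of TMM (−0.21, FDR 0.0728). Exons of Sesn1 share 548 bases with exons of Cep57l1 on the opposite strand, and the strand setting of the counting was not given in the sources used here, so reads there cannot be assigned with certainty.

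Sesn3 (ENSMUSG00000032009.10, chr9:14186363-14244397, plus strand), a target of FoxO factors, differed less between sorafenib and DMSO than the other sestrins at each time point. It had 1146, 1161, 1142 and 1199 normalized counts with DMSO and 918, 1024, 898 and 946 with sorafenib at 48 hours. At 7 days it had 818, 801, 774 and 727 with DMSO and 773, 797, 888 and 866 with sorafenib. The groups lay apart at 48 hours and overlapped at 7 days. Its log2 fold change was −0.30 (SE 0.0520, FDR 5.4e-05) at 48 hours and 0.09 (SE 0.0527, FDR 0.147) at 7 days, with a difference of 0.39 (SE 0.0740, FDR 2.7e-04) between them. With only genes of at least 10 counts in every sample, the value at 7 days was 0.12 and was called (FDR 0.0484). Between time points Sesn3 fell with DMSO (−0.58, FDR 1.2e-08) and less with sorafenib (−0.18, FDR 0.00872). Its exons share 88 and 24 bases with the noncoding genes Gm68498 and Gm34069 on the opposite strand.

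To set the sestrins beside each other, normalized counts were divided by the kilobases of exon of each gene. On this scale Sesn2 made up 18.5% ± 0.717 (SD, n = 4) of the sestrin level with DMSO and 74.5% ± 0.565 with sorafenib at 48 hours, and 29.6% ± 1.38 and 84.4% ± 0.599 at 7 days. Sesn1 made up 71.3% and 18.2% at 48 hours and 59.6% and 8.58% at 7 days. Sesn3 stayed between 7.05 and 10.8% of the sestrin level in the group means. The leading sestrin was thus Sesn1 in all 8 DMSO libraries and Sesn2 in all 8 sorafenib libraries, with either gene length. The summed level per kilobase was 653 ± 12.7 with DMSO and 737 ± 31.8 with sorafenib at 48 hours, but this direction flipped with the length of the canonical transcript, a choice made after seeing the data (1188 and 1079). At 7 days the sum was 414 ± 21.9 with DMSO and 672 ± 16.1 with sorafenib, higher with sorafenib also by canonical transcript (723 and 941) and with total counts only (409 and 675).

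**Figure D2:**
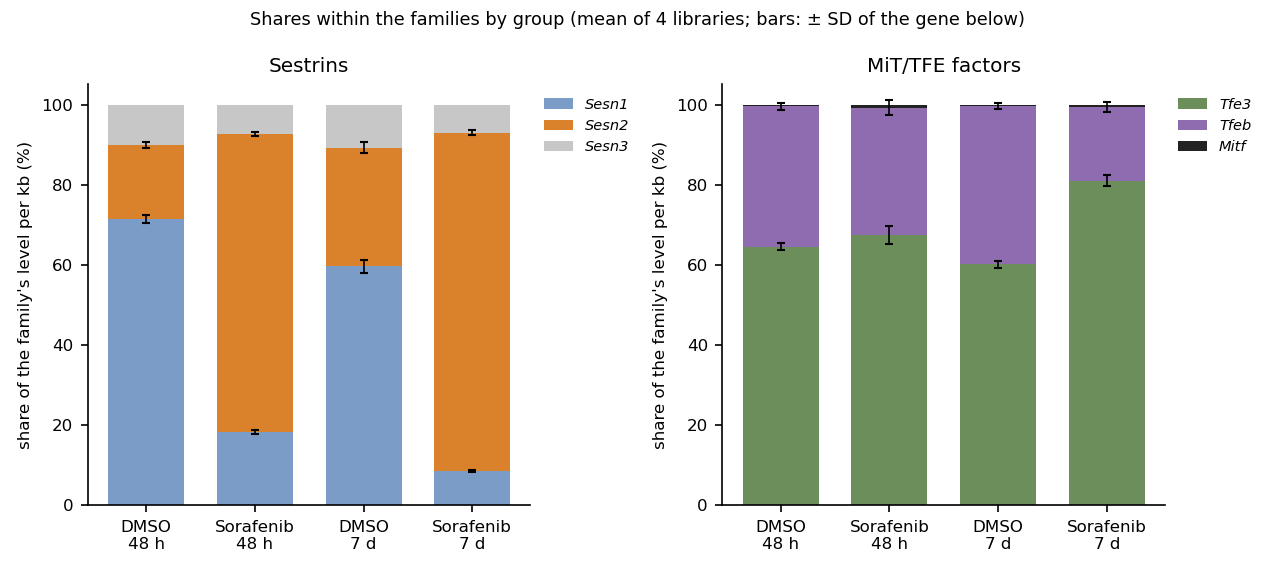
Mean share of each gene in the summed normalized counts per kilobase of exon (vertical axis, percent) of the sestrins and of the MiT/TFE factors in each group (horizontal axis), with error bars of ± SD over 4 libraries. Sesn2 takes 18.5 and 29.6% with DMSO but 74.5 and 84.4% with sorafenib, and Tfe3 takes 60.1 to 80.9% of the MiT/TFE level.

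Ddit4 and Deptor, which hold mTORC1 back by different means, had responses of opposite direction at the early and late times. DDIT4, also called REDD1, acts through the TSC complex and is induced by hypoxia, energy stress and glucocorticoids. Ddit4 (ENSMUSG00000020108.6, chr10:59785491-59788492, minus strand) had 6014, 5827, 5991 and 6545 normalized counts with DMSO and 3105, 3194, 3555 and 3546 with sorafenib at 48 hours. Late values were 1139.6, 798, 870.1 and 907 with DMSO and 2013, 1851, 1928 and 2003 with sorafenib. All 4 sorafenib libraries lay below DMSO at 48 hours and all 4 lay above it at 7 days. The log2 fold change was −0.86 (SE 0.0732, FDR 3.2e-09) and then 1.07 (SE 0.0783, FDR 3.0e-10), with a difference of 1.93 (SE 0.107, FDR 2.0e-11). The change in sign came with a fall in the control cells, where Ddit4 dropped 6.58-fold from 48 hours to 7 days (−2.72, SE 0.0792, FDR 1.4e-15). That change was larger than those of 97.6% of genes tested. With sorafenib it fell 1.72-fold over the same time (−0.78, FDR 5.3e-08), so the level with sorafenib was lower at 7 days than at 48 hours although the fold change was positive.

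DEPTOR binds mTOR itself and inhibits both of its complexes. Deptor (ENSMUSG00000022419.18, chr15:54975710-55122667, plus strand) had 412, 348, 367 and 351 normalized counts with DMSO and 229, 191, 271 and 257 with sorafenib at 48 hours. By 7 days Deptor had 186, 161, 134 and 139 with DMSO and 425, 413, 396 and 368 with sorafenib. Groups did not overlap at either time, and the sorafenib libraries at 7 days overlapped the DMSO libraries at 48 hours. The log2 fold change was −0.62 (SE 0.101, FDR 2.5e-05) at 48 hours and 1.38 (SE 0.103, FDR 4.2e-10) at 7 days, a difference of 2.00 (SE 0.144, FDR 1.1e-09). Deptor lies in the stretch lowered in replicate 2 of sorafenib for 48 hours, its lowest library of that group. Without that library the value at 48 hours was −0.54 (FDR 5.1e-07), the difference 1.91 (FDR 6.6e-19), and the mean with sorafenib 252 ± 21.6 normalized counts (n = 3). With DMSO, Deptor fell between time points (−1.26, FDR 3.5e-09), and with sorafenib it rose (0.74, FDR 5.7e-06, and 0.66 without that library). Its exons share 306 bases with the noncoding gene Gm9920 on the opposite strand.

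Between time points in the DMSO cells, a comparison without drug, 6 members were called, 1 higher and 5 lower, beside 49.4% of genes (23.9% higher and 25.5% lower). The 5 lower were Sesn1, Sesn3, Ddit4, Deptor and Rragd, and Tfeb was higher (0.21, FDR 0.0135). Tfeb missed the threshold with total counts only (0.15, FDR 0.0708). Between time points with sorafenib, 7 members were called, 2 higher (Deptor and Tfe3) and 5 lower, beside 39.7% of genes (17.5% higher and 22.3% lower). Sesn3 missed the threshold there with total counts only (−0.15, FDR 0.0523). Over the members, the median change with DMSO was −0.44, against −0.01 over all genes tested.

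**Figure D3:**
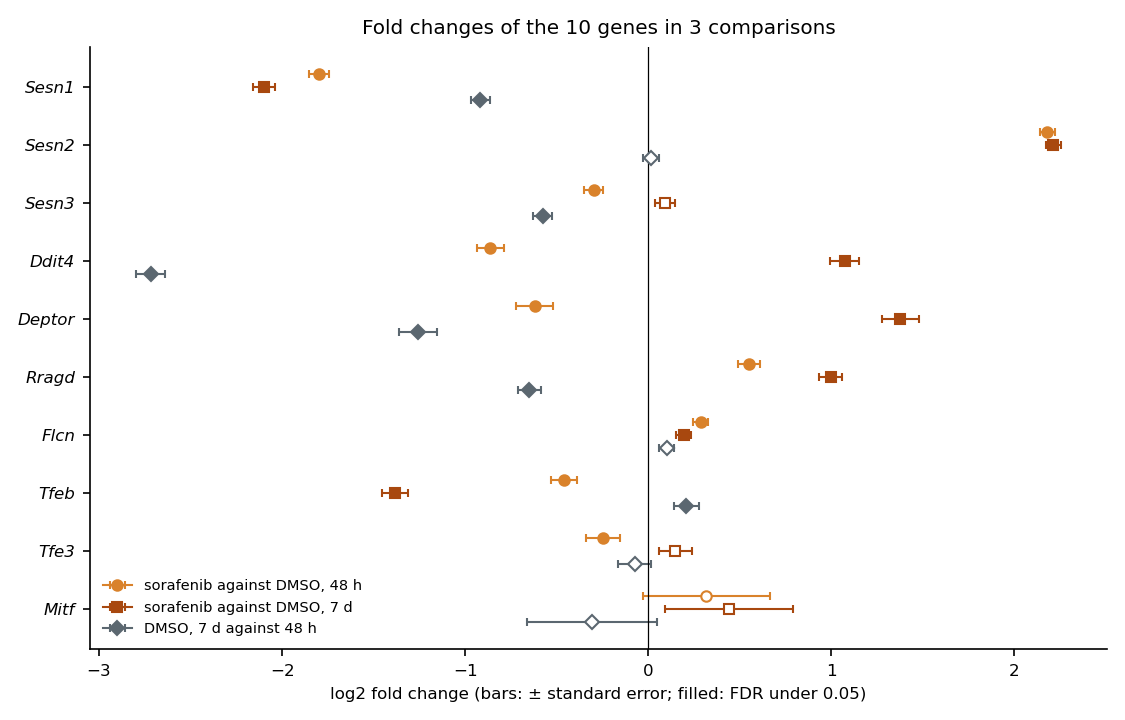
Log2 fold change of each of the 10 genes (horizontal axis, with bars of ± SE) for sorafenib against DMSO at 48 hours and at 7 days and for DMSO at 7 days against 48 hours, with filled points at an FDR under 0.05. Ddit4 and Deptor lie below 0 at 48 hours (−0.86 and −0.62) and above 0 at 7 days (1.07 and 1.38), while Sesn2 lies at 2.18 and 2.21.

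RRAGD is a GTPase that pairs with RagA or RagB to bring mTORC1 to the lysosome, and FLCN is the GTPase-activating protein, with FNIP1 or FNIP2, for RagC and RagD. Rragd (ENSMUSG00000028278.16, chr4:32982984-33025899, plus strand) had 290.3, 267, 311 and 282 normalized counts with DMSO and 419.5, 422, 409 and 432 with sorafenib at 48 hours. At 7 days it had 189, 173, 189.9 and 181 with DMSO and 337, 388, 372 and 360.04 with sorafenib. All sorafenib libraries lay above all DMSO libraries, at both times. The log2 fold change was 0.55 (SE 0.0602, FDR 1.4e-07) at 48 hours and 0.996 (SE 0.0628, FDR 3.0e-11) at 7 days, a difference of 0.45 (SE 0.0871, FDR 3.7e-04). The value at 7 days lay just under 1, so Rragd was not among the 5 members called there with a change of that size. Rragd fell between time points with DMSO (−0.65, FDR 4.9e-08) and less with sorafenib (−0.20, FDR 0.00919). The change with sorafenib missed the threshold without replicate 4 of sorafenib for 48 hours (−0.17, FDR 0.0543). Its exons share 606 bases with the noncoding gene 4933421O10Rik on the opposite strand.

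Flcn (ENSMUSG00000032633.14, chr11:59682196-59701138, minus strand) had 1339, 1222, 1259.8 and 1344 normalized counts with DMSO and 1570.1, 1662, 1599 and 1473 with sorafenib at 48 hours. Flcn at 7 days had 1374, 1412, 1394 and 1357 with DMSO and 1524, 1624, 1602 and 1581 with sorafenib. The groups lay apart at both times, although the rise was small. The log2 fold change was 0.29 (SE 0.0421, FDR 7.3e-06) at 48 hours and 0.19 (SE 0.0414, FDR 4.6e-04) at 7 days, and the difference between them was −0.09 (SE 0.0591, FDR 0.247). Between time points Flcn changed by 0.10 with DMSO (FDR 0.0535) and by 0.01 with sorafenib (FDR 0.906). The former was called without replicate 1 of DMSO for 48 hours (0.11, FDR 0.0438), without its replicate 4 (0.11, FDR 0.0420) and without replicate 2 of sorafenib for 48 hours (0.10, FDR 0.0131). It was also called with DESeq2 (0.12, FDR 0.0153), with DESeq2's size factors in edgeR (FDR 0.0253) and with no filter beyond 1 count (FDR 0.0332). With total counts only it was 0.04 (FDR 0.525), and the FDR ranged from 0.0131 to 0.179 when 1 library was left out. Exons of Flcn share 354 bases with the noncoding gene Gm16062 on the opposite strand.

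Rragd, Flcn and their partners are known as genes that TFEB and TFE3 turn on through a motif with the core CACGTG, so their starts are shown with those of Rragc and Fnip1. Each sequence is the 130 bases before the RefSeq start (GRCm38.p6, 5′ to 3′ on the gene's strand), with the letters TCACGTG in capitals on either strand. Rragc and Fnip1 were picked for comparison after the matches were seen. The stretches are chr4:32982868-32982997 for Rragd, chr4:123917303-123917432 for Rragc and chr11:54438049-54438178 for Fnip1 (all plus strand), and chr11:59810040-59810169 for Flcn (minus strand).
Rragd: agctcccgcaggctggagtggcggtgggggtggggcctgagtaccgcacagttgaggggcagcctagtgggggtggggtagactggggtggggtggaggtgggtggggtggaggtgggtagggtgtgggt
Rragc: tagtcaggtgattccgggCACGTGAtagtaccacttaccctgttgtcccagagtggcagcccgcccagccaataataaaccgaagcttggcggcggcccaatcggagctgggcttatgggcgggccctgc
Flcn: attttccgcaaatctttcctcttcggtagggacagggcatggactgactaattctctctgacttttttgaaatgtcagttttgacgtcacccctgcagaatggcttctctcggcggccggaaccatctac
Fnip1: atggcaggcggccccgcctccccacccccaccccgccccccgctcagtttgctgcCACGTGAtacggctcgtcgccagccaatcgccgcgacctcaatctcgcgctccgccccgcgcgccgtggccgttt
Rragc and Fnip1 hold 1 match each, and Rragd and Flcn hold 0.

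RefSeq windows from 250 bases before to 50 after a start were found for 9 of the 10 members (15 windows, all members but Deptor). CACGTG, the longer TCACGTG that contains it, and TGATGNAA were searched on both strands. Each was in 0 of the 15 member windows. Among all 32841 windows, 7.15% held CACGTG, 3.77% TCACGTG and 3.97% TGATGNAA. Among the windows of the TFEB and TFE3 target list, 11 of 27 held CACGTG and 10 of 27 TCACGTG, and 7 of 14 windows of the ATF4 list held TGATGNAA. Among the 12 windows of the Rag, Ragulator and FLCN partner list, 6 held TCACGTG. These are counts of letters in short windows and do not cover sites elsewhere in a gene.

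Tfeb, Tfe3 and Mitf code for MiT/TFE factors, whose entry into the nucleus, not measured here, is controlled by mTORC1. Tfeb (ENSMUSG00000023990.20, chr17:48047837-48103348, plus strand) had 697, 651, 693 and 707 normalized counts with DMSO and 564, 399, 516 and 508 with sorafenib at 48 hours. At 7 days it had 809.8, 783, 819 and 761 with DMSO and 286, 304, 301 and 326 with sorafenib. Every sorafenib library lay below every DMSO library, and replicate 2 of sorafenib for 48 hours was the lowest of its group. The log2 fold change was −0.46 (SE 0.0710, FDR 1.2e-05) at 48 hours and −1.38 (SE 0.0723, FDR 1.5e-12) at 7 days, a fall of 2.61-fold. The difference between them was −0.92 (SE 0.102, FDR 4.4e-07). Without replicate 2 of sorafenib for 48 hours, the early change was −0.38 (FDR 6.9e-08) and the difference −1.001 (FDR 2.2e-15). From 48 hours to 7 days of sorafenib Tfeb fell by a log2 of 0.71 (FDR 2.8e-07), or 0.79 without that library.

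Tfe3 (ENSMUSG00000000134.19, chrX:7628761-7641444, plus strand) had 1701, 1651, 1681 and 1857 normalized counts with DMSO and 1621, 1021, 1542 and 1609 with sorafenib at 48 hours. Tfe3 at 7 days had 1653, 1646, 1624 and 1622 with DMSO and 1930.2, 1742, 1761 and 1827 with sorafenib. The groups did not overlap at either time, and at 48 hours replicate 2 of sorafenib lay far below the rest. With it, the log2 fold change at 48 hours was −0.24 (SE 0.0926, FDR 0.0313), and without it −0.12 (SE 0.0387, FDR 0.00783). The call at 48 hours was lost without replicate 4 of DMSO for 48 hours (−0.24, FDR 0.0655), with no filter beyond 1 count (−0.20, FDR 0.0961) and with only the 8 libraries of that time point (−0.27, FDR 0.1251). At 7 days the change was 0.15 (SE 0.0908, FDR 0.175), which missed the threshold. It was called without replicate 2 of sorafenib for 48 hours (0.15, SE 0.0345, FDR 2.3e-04) and with only the 8 libraries of 7 days (0.14, FDR 1.1e-04). The difference between responses was 0.39 (SE 0.1297, FDR 0.0219), or 0.26 (FDR 2.8e-05) without that library. From 48 hours to 7 days, Tfe3 changed by −0.07 with DMSO (FDR 0.538) and by 0.32 with sorafenib (FDR 0.00925), or 0.19 without that library.

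Mitf (ENSMUSG00000035158.17, chr6:97783950-97998323, plus strand), the melanocyte and osteoclast member, was near the limit of detection with 238 counts over all 16 libraries. Its normalized counts ranged from 6.84 to 20.8 with DMSO and from 11.2 to 25.7 with sorafenib at 48 hours, and from 9.42 to 13.8 and from 10.6 to 27.5 at 7 days. The groups overlapped at both times, and no difference was detectable at this depth (log2 fold change 0.32, SE 0.346, FDR 0.470 at 48 hours, and 0.44, SE 0.351, FDR 0.304 at 7 days). When 1 library was left out, these changes ranged from 0.07 to 0.57 and from 0.05 to 0.61 and were not called in any fit. The lowest value at 7 days (0.05, FDR 0.919) came without replicate 4 of sorafenib for 7 days, the library at 27.5. Its exons share 103 bases with the noncoding gene Gm66437 on the opposite strand. Sesn2, Ddit4, Tfeb and Tfe3 share no exon bases with another gene.

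Per kilobase of exon, Tfe3 made up 64.5% ± 0.799 (SD, n = 4) of the MiT/TFE level with DMSO and 67.4% ± 2.22 with sorafenib at 48 hours, and 60.1% ± 0.803 and 80.9% ± 1.37 at 7 days. Tfeb made up 35.0% and 31.7% at 48 hours and 39.5% and 18.4% at 7 days. Mitf was under 1% in all group means (0.391 to 0.832%). The summed level was lower with sorafenib at both times, at 286 ± 12.5 and 229 ± 39.95 per kilobase at 48 hours (249 ± 7.40 for sorafenib without replicate 2) and at 292 ± 4.69 and 240.4 ± 8.78 at 7 days. Lower sums with sorafenib were also found with total counts only (294 and 224 at 48 hours, 289 and 241 at 7 days) and by canonical transcript (799.9 and 639, 819 and 664).

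On the scale of normalized counts per kilobase of exon, Ddit4 had the highest level of the 10 genes in each group and Mitf the lowest. With DMSO for 48 hours the means ran from Ddit4 (2245) through Sesn1 (466), Tfe3 (185), Flcn (171), Sesn2 (121), Tfeb (99.97), Sesn3 (66.3), Deptor (41.6) and Rragd (35.9) to Mitf (1.40). Only Tfe3 and Flcn were neighbours with overlapping libraries there. With sorafenib for 48 hours Ddit4 (1234) was followed by Sesn2 (549), Flcn (209), Tfe3 (155), Sesn1 (134), Tfeb (72.3), Sesn3 (54.0), Rragd (52.6), Deptor (26.7) and Mitf (1.77). In that group Tfe3 overlapped Sesn1, Tfeb overlapped Sesn3 and Sesn3 overlapped Rragd, the first 2 of these overlaps through replicate 2. With DMSO for 7 days the order was Ddit4 (342), Sesn1 (247), Flcn (183), Tfe3 (175), Sesn2 (122), Tfeb (115), Sesn3 (44.5), Rragd (22.9), Deptor (17.5) and Mitf (1.14), and Sesn2 and Tfeb overlapped. With sorafenib for 7 days it was Ddit4 (718), Sesn2 (567), Flcn (209.8), Tfe3 (195), Sesn1 (57.7), Sesn3 (47.4), Rragd (45.5), Deptor (45.1), Tfeb (44.2) and Mitf (1.57). Flcn and Tfe3 overlapped in that group, as did each neighbouring pair from Sesn3 to Tfeb. The order within a group depends on the gene length used. By canonical transcript, Tfeb lay above Sesn2 and Rragd above Deptor with DMSO for 48 hours, and the order with sorafenib for 48 hours was the same. With DMSO for 7 days, Tfe3 (479) lay above Flcn (400.1) and overlapped Sesn1 and Ddit4, and Tfeb lay above Sesn2. With sorafenib for 7 days, Tfe3 lay above Flcn, and Tfeb (129.6) lay above Sesn1, Sesn3, Rragd and Deptor.

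For 6 members, the 3 genes with the most similar pattern over the 16 libraries were found among 10645 genes that averaged 100 or more normalized counts, by Pearson's r of log2 normalized counts. The libraries fall into 4 groups, so r mostly reflects group means and is given as a description. Sesn2 was closest to Lhfpl2 (0.998), Glce (0.998) and Arhgef2 (0.998). Ddit4 was closest to Ypel3 (0.991), Ece1 (0.990) and Ankzf1 (0.988), and Sesn3 to Syce2 (0.972), P4ha1 (0.967) and Cryz (0.960). Rragd was closest to Idua (0.991), Arhgef10 (0.989) and Lamb2 (0.988). Flcn had Gm26782 (0.965), Shld2 (0.963) and Dvl1 (0.961), and Tfeb had Ccbe1 (0.991), Prr5 (0.985) and Card10 (0.985). These last 3 lie, as Tfeb does, in the stretch lowered in replicate 2 of sorafenib for 48 hours. Over the 15 other libraries, a comparison added after seeing the data, their r with Tfeb was 0.992, 0.986 and 0.990, and the closest genes were Fam184a (0.997), Plagl1 (0.994) and Bicc1 (0.994). The 3 genes named for Sesn2, Ddit4 and Rragd were also the closest over those 15 libraries, while Ift140 (0.972) took the place of Cryz for Sesn3 and Lmod1 (0.960) that of Dvl1 for Flcn.

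Other genes of the pathway were taken from lists of known members. Their counts stand beside 26.9% of all genes tested called higher and 27.7% lower at 48 hours, and 28.9% and 27.9% at 7 days. Of 15 genes for amino acid sensing upstream of the Rag GTPases, 5 were called higher and 6 lower at 48 hours and 3 and 6 at 7 days (medians 0.01 and −0.03). Castor1, the arginine sensor, rose by a log2 of 1.70 (FDR 1.7e-09) and 1.95 (FDR 2.5e-10), and Bmt2, the SAM sensor also called Samtor, fell by 0.85 and 0.66. Depdc5 of the GATOR1 complex fell by 0.48 and 0.46, and Nprl3 of the same complex rose by 0.49 and 0.47. Kics2, listed as BC048403, changed by 0.55 and 0.11, Castor2 by 0.41 and 0.61 and Mios by −0.01 and −0.56, where BC048403 at 7 days (FDR 0.164) and Mios at 48 hours (FDR 0.837) were not called. Castor2 at 48 hours missed the threshold without replicate 3 of DMSO (FDR 0.0540) or replicate 1 of sorafenib (FDR 0.0508) at that time. Of 13 Rag, Ragulator and FLCN partner genes, 9 were higher and 2 lower at 48 hours and 9 and 3 at 7 days (medians 0.15 and 0.22). Rragc rose with Rragd (0.97, FDR 7.2e-15, and 0.59, FDR 1.2e-11), and Fnip1 rose with Flcn (1.05, FDR 9.3e-14, and 0.92, FDR 5.1e-13). Lamtor4, a Ragulator subunit, fell (−0.65, FDR 2.4e-09, and −0.84, FDR 3.6e-11), and Lamp1 rose by 0.87 and 0.37 and Lamp2 by 0.50 and 0.61. Fnip2 rose by 0.68 and 0.19, while Rraga changed by 0.13 and −0.13 and Rragb by −0.43 and 0.22, the last of these not called (FDR 0.0673). Rragb at 7 days was called without replicate 2 of sorafenib for 48 hours (0.22, FDR 0.0110) or replicate 3 of sorafenib for 7 days (0.26, FDR 0.0477). Rraga at 48 hours missed the threshold without replicate 3 of DMSO (0.07, FDR 0.152) or replicate 4 of sorafenib (0.08, FDR 0.106) at that time. With 1 library left out in turn, from 6 to 9 genes of this list were called higher at 48 hours and from 8 to 10 at 7 days, with 2 and 3 lower in every fit.

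mTOR itself, its partners and its direct regulators and substrates were counted in the same way. Of 8 mTOR complex subunits, 4 were called higher and 3 lower at each time point (medians −0.04 and 0.11), with Mtor at −0.18 and −0.31, Rptor at 0.09 and 0.19, Prr5 at −0.54 and −1.41, Prr5l at 0.80 and 0.75, Mapkap1 at 0.62 and 0.33 and Mlst8 at −0.22 and −0.47. The call of Rptor at 48 hours was lost without any 1 of the 8 libraries of that time point (FDR 0.0696 to 0.248), and Prr5, in the lowered stretch, was at −0.42 at 48 hours without replicate 2 of sorafenib. Akt1s1 (0.12, FDR 0.0202 at 48 hours) lost its early call in 6 of those 8 fits (FDR 0.0582 to 0.139), and Mlst8 (FDR 0.0666 at 48 hours) was called lower in 4 of them (FDR 0.0210 to 0.0476). Over the 16 fits without 1 library, the counts at 48 hours ranged from 2 to 4 higher and from 2 to 4 lower, and at 7 days they stayed at 4 and 3. Of 10 genes of the TSC-Rheb axis, 4 were higher and 2 lower at 48 hours and 4 and 4 at 7 days (medians 0.04 and 0.03). Tsc1 fell by 0.27 and 0.20 and Akt2 by 0.43 and 0.45, while Rheb rose by 0.42 and 0.36 and Pdpk1 by 0.51 and 0.30. Tsc2, which lies in the lowered stretch of replicate 2 of sorafenib for 48 hours, was not called with that library (0.03, FDR 0.835, and 0.15, FDR 0.193) and was called higher without it (0.17, FDR 4.2e-06, and 0.15, FDR 4.1e-06). Ddit4l, the paralog of Ddit4, rose by 0.79 (FDR 1.9e-06) at 48 hours and fell by 2.59 (FDR 3.0e-14) at 7 days, the reverse of the order seen for Ddit4. Of 10 mTORC1 substrate genes, 3 were higher and 4 lower at each time (medians −0.09 and −0.04), with Eif4ebp1 at 1.04 and 0.99, Lpin1 at −1.53 and −2.31, Ulk1 at −0.57 and −0.35 and Grb10 at 0.28 and 0.84. Of 8 AMPK genes, 3 were higher and 1 lower at 48 hours and 2 and 4 at 7 days (medians −0.02 and −0.11), with Prkab2 at 1.65 and 1.44, Prkag2 at 0.56 and 0.51 and Prkaa2 at 0.68 and −1.15. Without replicate 2 of sorafenib for 48 hours, the counts at 48 hours became 8 higher and 2 lower for the Rag list, 3 and 3 for the mTOR complexes, 6 and 2 for the TSC-Rheb axis and 3 and 2 for AMPK, beside 57.0% of genes called. The medians at 48 hours became 0.12, −0.01, 0.13 and 0.03 in the same order, and −0.02 for amino acid sensing with its counts the same. Over the 16 fits that left out 1 library, the median at 48 hours took both signs for amino acid sensing (−0.02 to 0.01), the TSC-Rheb axis (−0.02 to 0.13) and AMPK (−0.05 to 0.03). It ranged from −0.16 to −0.09 for the mTORC1 substrates and from −0.08 to −0.01 for the mTOR complexes. At 7 days the median ranged from −0.07 to −0.03 for the mTORC1 substrates. It ranged from 0.01 to 0.05 for the TSC-Rheb axis and from −0.03 to −0.01 for amino acid sensing. In those fits from 4 to 6 genes of the TSC-Rheb axis were called higher at 48 hours, and apart from the Rag and mTOR complex lists above, all other counts of pathway, target and marker lists moved by 1 gene or less.

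Lists of target genes were set beside the members that act on them or share their regulators. For these lists and the hypoxia list below, the shares over all genes tested were again 26.9% higher and 27.7% lower at 48 hours, and 28.9% and 27.9% at 7 days. Of 30 tested targets of TFEB and TFE3, 23 were higher and 5 lower at 48 hours, and 23 and 4 at 7 days (medians 0.56 and 0.42), while Tfeb itself was lower at both times. Without replicate 2 the count at 48 hours was 24 higher and 5 lower (median 0.55). Gpnmb rose by a log2 of 4.93 (FDR 1.8e-16) and 4.27 (FDR 3.6e-18), Sqstm1 by 1.61 and 2.08, Wipi1 by 1.27 and 1.80 and Mcoln1 by 0.31 and 0.56, and Ctsf fell by 2.13 and 1.16. Whether TFEB or TFE3 acts on these genes here was not tested, and Tfec, the other MiT/TFE gene, had no counts in any library. Of 12 genes of ATF4 and its targets, 11 were higher at 48 hours, and 11 higher and 1 lower at 7 days (medians 3.08 and 2.40), beside the rise of Sesn2. Atf4 rose by 1.598 and 0.97, Ddit3 by 3.57 and 2.90, Trib3 by 4.27 and 3.75, Slc7a11 by 4.15 and 2.30, Chac1 by 3.58 and 2.76 and Ppp1r15a by 2.69 and 3.09. Of 10 genes of p53 and its targets, 8 were higher and 1 lower at 48 hours and all 10 were higher at 7 days (medians 0.62 and 0.80), beside the fall of Sesn1. Counts on Trp53 changed by −1.002 and 0.27, on Cdkn1a by 1.86 and 2.26 and on Mdm2 by 0.53 and 0.37. Eda2r rose by 2.06 and 2.98, Phlda3 by 0.74 and 1.37, Zmat3 by 0.85 and 0.44 and Bbc3 by 0.41 and 1.43.

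Of 8 target genes of hypoxia-inducible factors, 1 was higher and 7 lower with sorafenib at 48 hours (median −1.80), and 5 were higher and 3 lower at 7 days (median 0.53). In the DMSO cells all 8 were called lower at 7 days than at 48 hours (median −1.94), beside 25.5% of all genes. Ddit4 fell by 2.72 in that comparison. At the early and late times Bnip3 changed by −3.24 and 0.60 and Ndrg1 by −0.81 and 1.69, beside −0.86 and 1.07 for Ddit4. Ankrd37 (−3.86 and −2.002), Egln3 (−2.48 and −1.502) and Car9 (−1.77 and −1.71) were lower at both times, and Vegfa was higher at both (0.43 and 1.83). Whether Ddit4 and these genes share a regulator here was not tested.

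Some list genes named above lie in the stretch lowered in replicate 2 of sorafenib for 48 hours. Without that library, the early changes were −0.33 for Rragb, 0.64 for Lamp2, −0.09 for Mlst8, 0.65 for Pdpk1, −2.03 for Ctsf, 1.72 for Atf4, 2.01 for Cdkn1a and 2.17 for Eda2r. They were 0.56 for Vegfa, −0.68 for Ndrg1, −0.28 for Krt18, −0.64 for Pdgfrb, 3.93 for Acta2 and −0.52 for Csf1r. Of these 14 genes, Mlst8 (FDR 0.161) and Csf1r (FDR 0.261) were not called, as with all libraries.

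**Figure D4:**
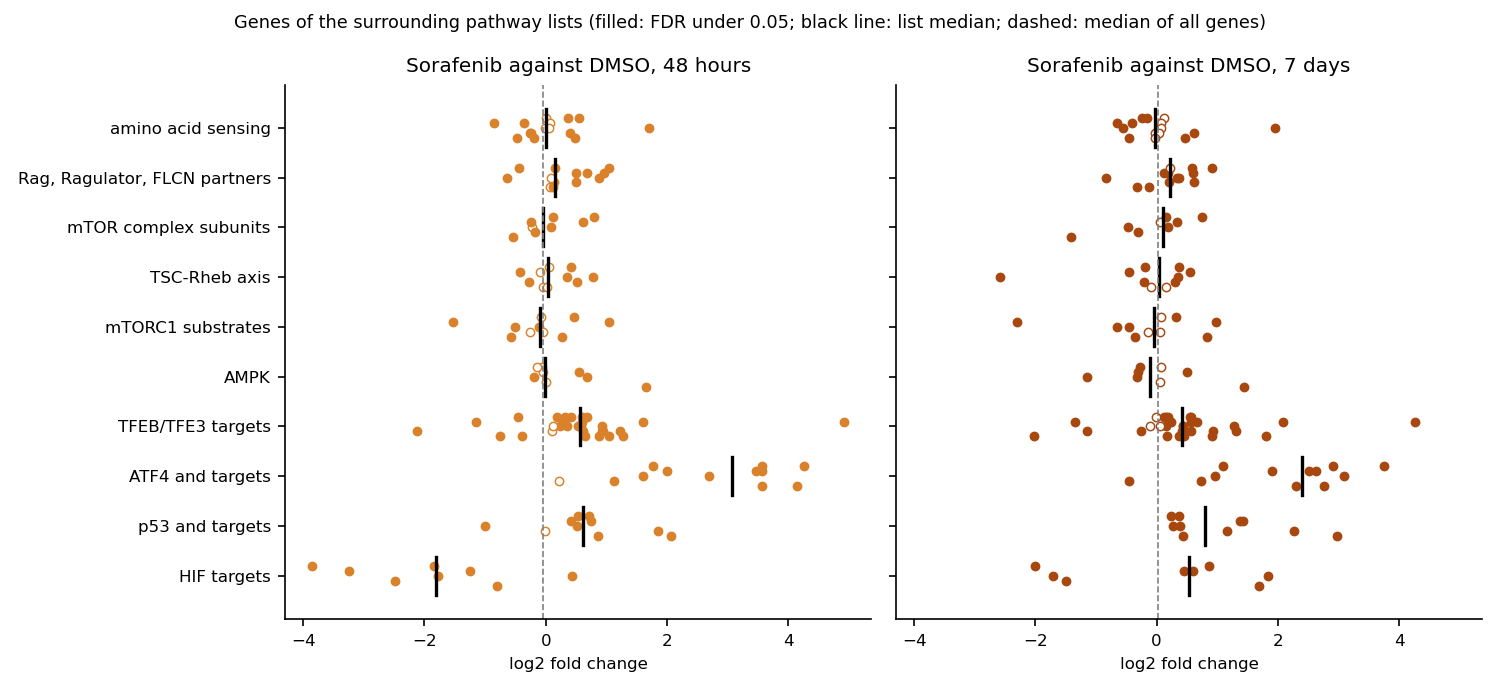
Log2 fold change of each gene (horizontal axis) in the 10 gene lists, for sorafenib against DMSO at 48 hours and 7 days, with 1 point a gene and a line at the list's median. The ATF4 list has medians of 3.08 and 2.40, the TFEB and TFE3 target list 0.56 and 0.42, and the hypoxia list −1.80 and 0.53.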

How the data were processed

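The deposited values are read counts per gene as the authors made them, with no normalization. The submitters' processing notes name STAR 2.7.1a, featureCounts 2.0.6 of Subread and DESeq2 1.40.2, with the genome GRCm39 (mm39), and the label of the kit is Illumina Stranded mRNA Prep. The strand setting and the gene annotation are not given in the sources used here.

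Genes with fewer than 10 counts in total were removed (20396 of 40840). The tests used edgeR 4.0.16 in R 4.3.3 (TMM factors, quasi-likelihood test, 4 groups in 1 model, no block) and Benjamini-Hochberg adjustment over all genes tested. DESeq2 1.42.0 was an alternative. The others were DESeq2's size factors or total counts only in edgeR, no filter beyond 1 count or 10 counts or more in every sample, a required log2 change of 1 or more in size, the replicate number as a block, only the 8 libraries of a time point, and each library left out in turn. The length of the canonical transcript, and the genes of similar pattern without replicate 2 of sorafenib for 48 hours, were added after seeing the data. Gene positions and lengths are from GENCODE vM39, and promoter sequences from RefSeq (GRCm38.p6).

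The members and lists were chosen with earlier results of these data known. By rule, all members were named. Genes of lists came from the 3 called genes with the largest absolute change at either time point (mean of 100 or more normalized counts) and from a written set of pathway genes, and both time points are given for each. Genes of similar pattern were the 3 with the highest r. The lists were amino acid sensing, Rag, Ragulator and FLCN partners, mTOR complexes, the TSC-Rheb axis, mTORC1 substrates, AMPK, targets of TFEB and TFE3, ATF4, p53, hypoxia-inducible factors, and markers of hepatoblasts, fibroblasts, endothelial cells and leukocytes. Fnip1, Fnip2 and Lamp1 are in 2 lists.

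The step in replicate 2 of sorafenib for 48 hours was sought from log2 ratios to the other replicates, limited to 1.5 in size, along the ordered genes. The place was where the cumulative sum of these ratios, less their mean, was largest in size after scaling for the genes on each side. The size of the step was then the difference of the medians of the sides. The ratio was taken to the median of the other replicates, which replaced the mean of those replicates after the values were seen. The coding of the replicate block between time points was also corrected after its values were seen.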

Additional observations from a re-analysis of the deposited data

Results flagged for a closer look

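In 40 groups of 4 libraries (10 genes in 4 groups), 2 had a library far from the others, and chance gives this in about 1 of 20 groups. Tfe3 in replicate 2 of sorafenib for 48 hours had 1021 normalized counts against 1542 to 1621 in the others, a gap of 0.869 of the group's range. Mitf in replicate 4 of sorafenib for 7 days had 27.5 against 10.6 to 13.1, a gap of 0.849 of the range.

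The response to sorafenib differed between 7 days and 48 hours, by the interaction term in edgeR, for 7 members beside 36.8% of genes tested. The difference in log2 fold change, late minus early, was −0.30 for Sesn1, 0.39 for Sesn3 and 0.45 for Rragd. It was 1.93 for Ddit4 and 2.00 for Deptor, whose direction changed. For Tfeb it was −0.92 and for Tfe3 0.39, or −1.001 and 0.26 without replicate 2 of sorafenib for 48 hours.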

How the results depend on the processing

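With a log2 change of 1 or more also required, called genes fell to 3690 at 48 hours, 4202 at 7 days, 1965 for the difference between responses, 2242 between time points with DMSO and 1727 with sorafenib. Called members fell to 2, 5, 2, 2 and 1. With the replicate number as a block the calls were 10644, 11027, 6987, 9669 and 7572 genes, and 9, 7, 7, 6 and 7 members. Over 10660 genes, deviations correlated on average by −0.00897 (48 hours) and 0.0691 (7 days) between libraries of 1 number, and by 0.00297 and −0.0225 between different numbers. By canonical transcript, chosen after seeing the data, the Sesn2 share of the sestrins was 13.3, 66.3, 22.0 and 78.4% in DMSO and sorafenib at 48 hours and then at 7 days, and the Tfe3 share 63.0% with DMSO at 48 hours and 58.5% with DMSO at 7 days, as the ratio of lengths differs. With total counts only, the difference in response of Flcn was 0.0013 in place of −0.09 and the change of Sesn2 between time points with DMSO −0.0431 in place of 0.02, neither called, and the cause was not tested. The median of all genes at 48 hours was −0.12 with total counts and −0.05 with TMM. Leaving out 1 library in turn (16 fits) gave 10609 to 11608, 10981 to 12590, 7073 to 8761, 9419 to 11242 and 7355 to 9047 genes in the same order, and 8 to 9, 7 to 8, 7 to 7, 6 to 7 and 6 to 7 members. In those fits 3 values that were not called changed sign: Sesn2 between time points with DMSO (−0.0083 to 0.0318), the difference for Mitf (−0.27 to 0.37) and Flcn between time points with sorafenib (−0.0049 to 0.0358). Other small values kept their sign and were not called in any of those fits. They were Sesn3 at 7 days (0.06 to 0.12), the differences for Flcn (−0.11 to −0.05) and Sesn2 (0.02 to 0.08), and 2 changes between time points. These were Tfe3 with DMSO (−0.09 to −0.04) and Sesn2 with sorafenib (0.03 to 0.07). Replicates differed by more than counting error, with a chi-square per gene of 1.47 to 49.9 between pairs of replicates, and Mitf is the member that depth limits most. Of 56 counts for the gene lists, 36 moved by more than a factor of 1.5 when a log2 change of 1 or more was also required. Such moves numbered 5 with 10 counts or more in every sample, 3 with total counts only and 2 with only the 8 libraries of a time point. DESeq2 and the replicate block moved 1 each.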
